A study of Mus musculus with 28 samples.

Results

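Transcripts that mark myeloid cells or carry the fractalkine signal were followed in implanted scaffolds: Cd14, Itgam, Aif1, Cx3cr1 and Cx3cl1. They were taken by gene symbol from an inflammation panel, and these 5 genes are 5 of the 584 gene symbols, and 5 of the 648 assays, on it. Each was measured by 1 TaqMan assay (Mm00438094_g1, Mm00434455_m1, Mm00479862_g1, Mm02620111_s1 and Mm00436454_m1 in the order above), and all 5 assays matched the RefSeq gene of the same symbol. The samples were porous scaffolds of PCL (polycaprolactone, a polyester) implanted in 28 female BALB/c mice, which fill with host cells and are called a synthetic niche in the labels. Every mouse carried a scaffold, and 14 were healthy and 14 bore tumors of 4T1-luc2-tdTomato, a mouse mammary carcinoma line with luciferase and a red fluorescent protein. That line is entered in the labels of the healthy mice too, and the stated condition set the groups. Scaffolds came from 3 healthy and 3 tumor-bearing mice at day 7 after inoculation, 8 and 8 at day 14, and 3 and 3 at day 21, 1 scaffold per mouse. No ages are used here. Values were relative quantities by RT-qPCR on a log2 scale, where 1 unit is a doubling and 0 is the mean level of 5 reference genes in the same sample. The scaffold holds a mixture of cells, so fewer cells of a type and less RNA per cell cannot be told apart.

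Cd14 is the co-receptor that hands bacterial lipopolysaccharide to Toll-like receptor 4 on monocytes and macrophages. Itgam is the alpha chain of the integrin CD11b/CD18, which monocytes, macrophages, neutrophils and some NK cells carry, and Aif1 encodes Iba1, an actin- and calcium-binding protein of macrophages and microglia. Cx3cr1 is the receptor of fractalkine and is high on patrolling monocytes and many tissue macrophages, while Cx3cl1 is fractalkine itself, a chemokine held on the membrane of endothelial, epithelial and other cells until proteases release it.

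None of the 5 transcripts differed between tumor-bearing and healthy mice at day 7, day 14 or day 21 past the threshold of an adjusted p of 0.05 by limma (a linear model fitted over all assays, adjusted by Benjamini-Hochberg). At day 14, where 8 mice per condition were compared, the estimates for Cd14, Itgam and Cx3cr1 lay between 0.977-fold and 1.10-fold of the healthy level, and their 95% intervals ran at most from 0.809-fold to 1.33-fold. In the same scaffolds 10 of 11 assays of neutrophil markers rose, and 8 of 11 with the panel as a fixed block. At day 21, Cx3cr1 was 1.31-fold of the healthy level (95% interval 0.975 to 1.75, adjusted p 0.669 by limma). Its values did not overlap between conditions on that day, nor did those of Itgam, of Aif1 and of 18.3% of all assays. Aif1 at day 7 stood at 32.2-fold only because of 1 reaction.

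Of 18144 reactions on the panel, 12.4% gave no Cq (the number of PCR cycles needed before product is detected), and samples had 475 to 587 assays with a value. Cd14 and Cx3cr1 were measured in all 28 mice, Cx3cl1 in 27, and Itgam and Aif1 in 26. The mouse missing Itgam, Aif1 and Cx3cl1 was tumor-bearing day 14 replicate 21, and the one missing only Aif1 was healthy day 14 replicate 13; these had the lowest numbers of assays with a value, 489 and 475. Itgam was also missing in tumor-bearing day 21 replicate 26, a sample with 566 values. The median raw Cq was 17.9 for Itgam, 18.6 for Cd14, 20.1 for Aif1, 22.01 for Cx3cr1 and 23.1 for Cx3cl1, against 21.8 over the whole panel. Levels of different genes are not compared, because the efficiency of each assay is not given in the sources used here.

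The Aif1 reaction of tumor-bearing day 7 replicate 4 had a Cq of 4.50, while the other 25 Aif1 reactions had a Cq of 18.97 to 20.98. It was 1 of 2 reactions on the whole panel with a Cq under 5, and 1 of 54 reactions that lay more than 4 cycles from the median of their group. On the normalized scale it stood at 14.44, against -1.56 and -1.89 in the other day 7 tumor-bearing mice. The authors' deposited table gives Aif1 a day 7 fold change of 32.2, the highest of 588 assays there, and the same group means without this reaction gave 0.768. Every Aif1 result is therefore given without it as well, with 2 tumor-bearing mice left at day 7.

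**Figure D1:**
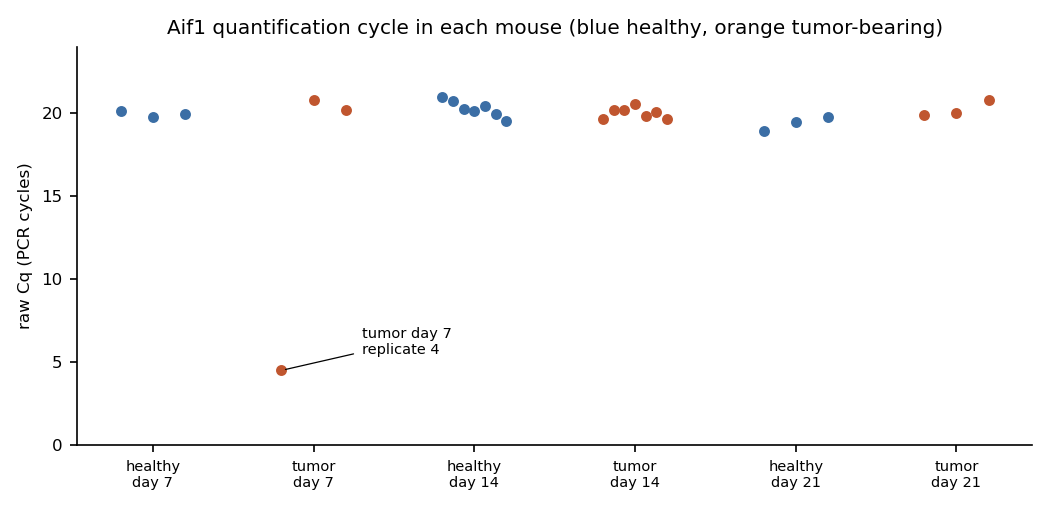
Raw Cq of Aif1 (vertical axis, PCR cycles, lower means more template) in each of 26 mice, by condition and day; each point is 1 mouse. The reaction of tumor-bearing day 7 replicate 4 sits at 4.50, and all others lie between 18.97 and 20.98.

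The plot of levels by group shows how narrow the ranges were. The spread within groups (pooled SD on the log2 scale) was 0.239 for Cd14, 0.246 for Itgam and 0.246 for Cx3cr1, against a median of 0.445 over the 559 assays compared. Only 15.4%, 16.8% and 16.99% of those assays, respectively, had a smaller SD. Cx3cl1 (0.402) and Aif1 without the far reaction (0.398) lay nearer the middle of the panel, and Aif1 with it had an SD of 2.98. The means of the 6 groups of mice spanned 0.24 for Itgam, 0.29 for Cd14, 0.45 for Cx3cr1, 0.47 for Cx3cl1 and 0.54 for Aif1 without the far reaction, all on the log2 scale. From high to low, Cx3cr1 ran from tumor-bearing day 21, tumor-bearing day 7 and healthy day 21 to healthy day 14, healthy day 7 and tumor-bearing day 14. Itgam was highest in tumor-bearing day 7 and then tumor-bearing day 21, healthy day 7, tumor-bearing day 14, healthy day 14 and healthy day 21. Cd14 had the order healthy day 7, tumor-bearing day 7, tumor-bearing day 14, healthy day 21, healthy day 14 and tumor-bearing day 21. Cx3cl1 had the order healthy day 7, healthy day 14, tumor-bearing day 7, healthy day 21, tumor-bearing day 14 and tumor-bearing day 21, and Aif1 without the far reaction healthy day 21, healthy day 7, tumor-bearing day 14, healthy day 14, tumor-bearing day 21 and tumor-bearing day 7. In each order, neighbouring means differed by less than the mean of their SDs.

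**Figure D2:**
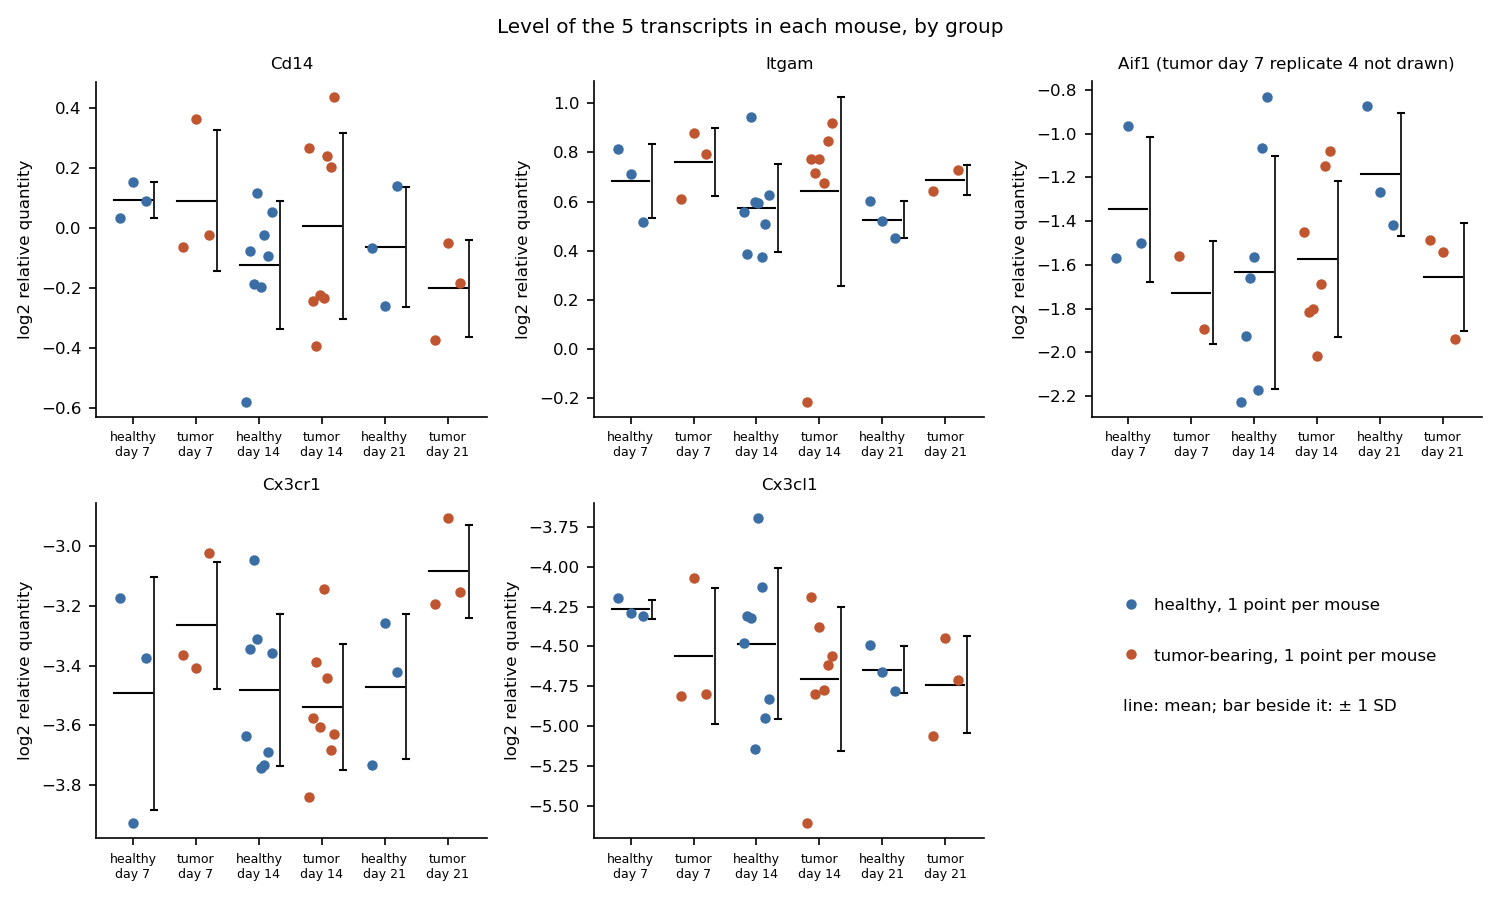
Log2 relative quantity (vertical axis, each gene on its own scale) of the 5 transcripts in healthy (blue) and tumor-bearing (orange) mice at days 7, 14 and 21. Points are mice, lines are group means and bars are 1 SD; the Aif1 reaction at 14.44 is not drawn. Of the 5, Itgam (with 2 tumor-bearing values), Aif1 and Cx3cr1 did not overlap between conditions at day 21. Among all assays compared, 18.3% showed no overlap then. All 5 overlapped at days 7 and 14, while 9.2% and 0.676% of assays, respectively, did not.

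For Cd14, the healthy mice at day 7 stood at 0.03, 0.15 and 0.09 and the tumor-bearing mice at -0.07, 0.36 and -0.02. At day 14 the 8 healthy mice ran from -0.58 through a median of -0.09 to 0.12, and the 8 tumor-bearing mice from -0.39 through -0.01 to 0.44. At day 21 the healthy mice stood at -0.07, -0.26 and 0.14, and the tumor-bearing mice at -0.37, -0.05 and -0.18. The conditions overlapped on every day. The tumor-bearing mice of day 14 fell into 4 values between -0.39 and -0.22 and 4 between 0.20 and 0.44, with none between, and the upper 4 were replicates 15, 20, 21 and 22; replicate 15 of the upper 4 shared a physical panel with replicates 16, 17 and 18 of the lower 4. By limma the log2 differences at days 7, 14 and 21 were -0.00127 ± 0.20 (SE), 0.14 ± 0.13 and -0.14 ± 0.20, with adjusted p of 0.997, 0.709 and 0.986. Among the 10 pairs of 1 tumor-bearing and 1 healthy mouse of the same day that shared a physical panel, Cd14 was higher in the tumor-bearing mouse in 5 and lower in 5.

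For the integrin chain Itgam, the healthy mice at day 7 stood at 0.81, 0.71 and 0.52 and the tumor-bearing mice at 0.61, 0.88 and 0.79. At day 14 the 8 healthy mice ran from 0.37 through 0.58 to 0.94, and the 7 tumor-bearing mice from -0.21 through 0.77 to 0.92. Replicates 16 to 20 and 22 of the tumor-bearing mice lay at 0.68 or above, and the healthy mice other than replicate 9 lay at 0.63 or below. The ranges overlapped through tumor-bearing replicate 15, the lowest of all 26 values, and healthy replicate 9, the highest of them. The log2 difference at day 14 by limma was 0.09 ± 0.14 (adjusted p 0.862), and it was 0.22 ± 0.09 (95% interval 0.02 to 0.41, unadjusted p 0.0314, adjusted p 0.348) without tumor-bearing replicate 15, and 0.13 ± 0.14 without healthy replicate 9.

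At day 21, Itgam stood at 0.60, 0.52 and 0.45 in healthy mice and at 0.64 and 0.73 in the 2 tumor-bearing mice with a value. The tumor-bearing values were higher without overlap, and the log2 difference was 0.16 ± 0.24 (limma, adjusted p 0.986). The exact permutation test gave p = 0.2, with 0.1 the smallest this design allows. Itgam was higher in the tumor-bearing mouse in 7 of 8 same-panel pairs.

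For Aif1, the healthy mice at day 7 stood at -1.57, -0.97 and -1.50, and the tumor-bearing mice other than replicate 4 at -1.56 and -1.89. At day 14 the 7 healthy mice ran from -2.23 through -1.66 to -0.83 and the 7 tumor-bearing mice from -2.02 through -1.69 to -1.08. At day 21 the healthy mice stood at -0.87, -1.27 and -1.42 and the tumor-bearing mice at -1.49, -1.54 and -1.94. At day 21 every tumor-bearing value was below every healthy one, and the tumor-bearing mouse was lower in 3 of 3 same-panel pairs. Without the far reaction the log2 differences at days 7, 14 and 21 were -0.40 ± 0.34, 0.06 ± 0.21 and -0.47 ± 0.31 by limma, with adjusted p of 0.993, 0.941 and 0.738. With all reactions it was 5.01 ± 2.28 at day 7 (adjusted p 0.997), and the same reaction widened the standard error to 1.58 at day 14 and to 2.28 at day 21, since all days share 1 estimate of the spread. The exact permutation test at day 21 gave p = 0.1, the smallest that 3 mice against 3 allow.

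For the fractalkine receptor Cx3cr1, the healthy mice at day 7 stood at -3.17, -3.93 and -3.38 and the tumor-bearing mice at -3.37, -3.41 and -3.02. At day 14 the 8 healthy mice ran from -3.75 through -3.50 to -3.05 and the 8 tumor-bearing mice from -3.84 through -3.59 to -3.14. At day 21 the healthy mice stood at -3.73, -3.26 and -3.42, and the tumor-bearing mice at -3.19, -2.91 and -3.15. The day 21 tumor-bearing mice held the highest group mean of the 6, -3.08 ± 0.16 (SD, n = 3), and the next was tumor-bearing day 7 at -3.27 ± 0.21 (SD, n = 3), a gap smaller than the mean of their SDs. The limma estimates of the log2 difference at days 7, 14 and 21 were 0.23 ± 0.20, -0.03 ± 0.13 and 0.39 ± 0.20, with adjusted p of 0.997, 0.959 and 0.669. At day 14 the sign turned under other settings: it was 0.16 ± 0.17 with the panel as a fixed block and 0.09 ± 0.14 when the sample's median Cq replaced the reference genes. At day 21 the exact permutation test gave p = 0.1, the smallest possible. On shared panels Cx3cr1 was higher in the tumor-bearing mouse in 3 of 3 pairs at day 21 (by 0.27, 0.54 and 0.35) and in 8 of 10 pairs in all.

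For the ligand Cx3cl1, the healthy mice at day 7 stood at -4.20, -4.29 and -4.31 and the tumor-bearing mice at -4.81, -4.07 and -4.80. At day 14 the 8 healthy mice ran from -5.14 through -4.40 to -3.70 and the 7 tumor-bearing mice from -5.61 through -4.62 to -4.19. At day 21 the healthy mice stood at -4.49, -4.66 and -4.78 and the tumor-bearing mice at -5.06, -4.45 and -4.71. The conditions overlapped on every day, and the lowest of the 27 values belonged to tumor-bearing day 14 replicate 15, the mouse with the lowest Itgam. Log2 differences at days 7, 14 and 21 were -0.29 ± 0.32, -0.23 ± 0.22 and -0.09 ± 0.32 by limma, with adjusted p of 0.997, 0.721 and 0.995. Without that mouse the day 14 difference was -0.10 ± 0.20. On shared panels Cx3cl1 was higher in 4 of 9 pairs and lower in 5.

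Read against the panel, the counts were as follows. By limma 0 of 5 transcripts passed at day 7, where 0% of 565 assays did, 0 of 5 at day 14, where 2.38% of 588 did, and 0 of 5 at day 21, where 1.22% of 573 did. At day 14, 4 healthy mice had a panel of their own (D), as had 4 tumor-bearing mice (G). With the panel as a fixed block, which compares mice within panels, the day 14 differences were 0.23 ± 0.17 for Cd14, 0.30 ± 0.22 for Itgam and -0.37 ± 0.33 for Cx3cl1, and none of these passed (adjusted p 0.611, 0.614 and 0.707 by limma). Over the alternatives that did not leave out single mice, the adjusted p by limma at day 14 ran from 0.49 to 0.808 for Cd14, from 0.43 to 0.886 for Itgam and from 0.654 to 0.836 for Cx3cl1. With 1 mouse left out at a time, the lowest was 0.573 for Cd14, 0.348 for Itgam and 0.54 for Cx3cl1. As the mean of the 3 days 0 of 5 passed against 2.5% of 559 assays; Cx3cr1 had the smallest p there, with a log2 difference of 0.19 ± 0.11 (adjusted p 0.628 by limma). Values of the conditions did not overlap for 0 of 5 transcripts at day 7 (9.2% of assays), 0 of 5 at day 14 (0.676%) and 3 of 5 at day 21 (18.3%), where Itgam and Cx3cr1 were higher and Aif1 lower in tumor-bearing mice. Over 13 contrasts of condition and day, 0 of 65 tests passed; 4 had an unadjusted p under 0.05, and 1 without far reactions.

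**Figure D3:**
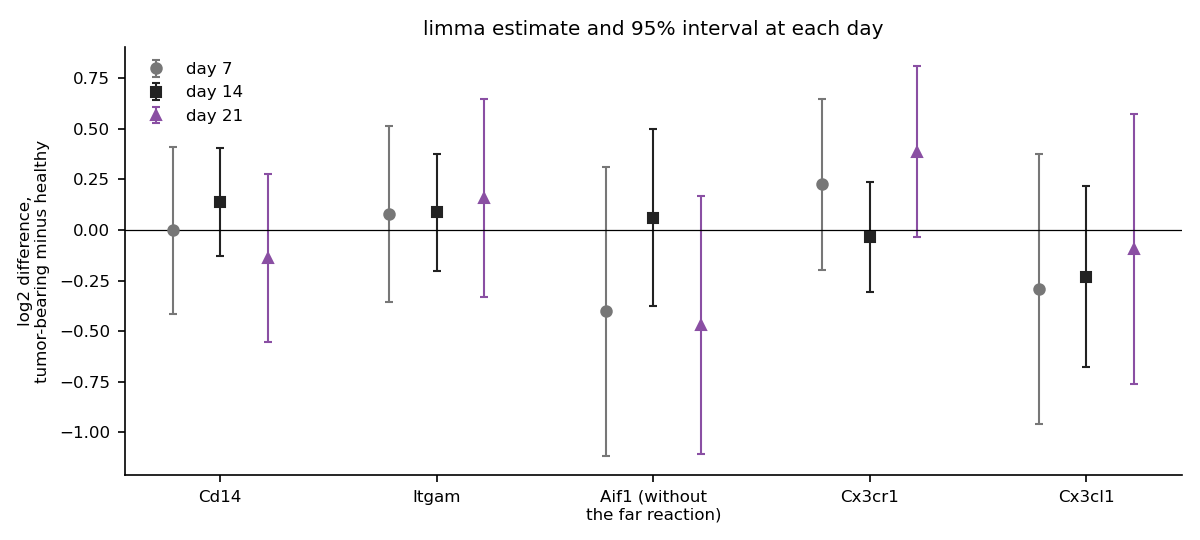
Log2 difference of tumor-bearing minus healthy mice (vertical axis) for each transcript at day 7 (circle), day 14 (square) and day 21 (triangle), with 95% intervals from limma; Aif1 is drawn without its far reaction. All 15 intervals include 0, and the highest estimate is that of Cx3cr1 at day 21, 0.39.

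Across days, the 1 test without far reactions that had an unadjusted p under 0.05 was Cx3cr1 in tumor-bearing mice. It was higher at day 21 than at day 14 by 0.44 ± 0.17 on the log2 scale (limma, unadjusted p 0.0178, adjusted p 0.289), where 0% of 583 assays passed. The ranges of those days overlapped, in that day 14 replicate 19 stood at -3.14 and the day 21 mice at -3.19, -2.91 and -3.15. The tumor effect on Cx3cr1 was larger at day 21 than at day 14 by 0.42 ± 0.24 (adjusted p 0.745 by limma), and 0% of 571 assays passed in that comparison; with the panel as a fixed block it was 0.23 ± 0.26. Of the 5 transcripts, 0 passed for day 21 minus day 7 in tumor-bearing mice, against 0.529% of assays. With all reactions, Aif1 in tumor-bearing mice was lower at day 14 than at day 7 by a log2 difference of -5.27 ± 1.98 (unadjusted p 0.0142, adjusted p 0.367 by limma; 0.175% of assays passed), and without the far reaction that difference was 0.18 ± 0.31.

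In healthy mice, Aif1 was 0.42 ± 0.27 higher at day 21 than at day 14 without the far reaction (adjusted p 0.429 by limma), where 0.346% of assays passed with all reactions. Cx3cl1 was the 1 of 5 transcripts whose values did not overlap between days in either condition: in healthy mice the day 21 values were all below those of day 7. Over all assays, day 21 against day 7 was without overlap for 26.8% in healthy and 16.4% in tumor-bearing mice; day 14 against day 7 for 4.37% and 4.2%; and day 21 against day 14 for 6.06% and 5.15%. The log2 difference was -0.34 ± 0.33 (limma, adjusted p 0.756), and the group mean was -4.64 ± 0.14 (SD, n = 3) on the later day against -4.27 ± 0.06 (SD, n = 3).

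The listed partner genes did not pass between conditions either, with 1 exception. Of the assays for partners of Cd14, the lipopolysaccharide receptor complex and its adaptors, 0 of 11 passed at day 14; the smallest p belonged to the receptor Tlr4 (0.24 ± 0.11, adjusted p 0.429 by limma) and the adaptor Myd88 (0.18 ± 0.09, adjusted p 0.441). The median log2 difference of that list was -0.03, and that of all assays -0.08. Of the beta2 integrins and their ligands, which pair with or bind Itgam, 0 of 5 passed at day 14, and Itgb2, the chain that pairs with Itgam, had a difference of 0.04 ± 0.09. At day 21, Itgb2l, a neutrophil paralog of that chain which the neutrophil list holds too, rose by 3.24 ± 0.70 (adjusted p 0.0437 by limma) and the other 5 of 6 did not pass. The Itgb2l estimate rested on as few as 2 values in a group, at a mean level of -11.0 on the log2 scale. Of the genes that cleave, induce or assist fractalkine, 0 of 8 assays passed at day 14 (median -0.08) and 0 of 8 at day 21 (median -0.51, against -0.00127 over all assays); among them the cytokine Il1a had -0.54 ± 0.46.

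Of 7 assays of other monocyte and macrophage markers, 0 passed between conditions on any of the 3 days. Their median log2 differences at days 7, 14 and 21 were 0.05, 0.20 and 0.39, against 0.03, -0.08 and -0.00127 over all assays. The chemokine receptor Ccr2, which marks inflammatory monocytes and is often set beside Cx3cr1, had a difference of 0.20 ± 0.25 at day 14 and 0.78 ± 0.37 at day 21 (unadjusted p 0.044, adjusted p 0.533 by limma). At day 14, Ccr2 of healthy replicate 14 stood at 0.92, and the other healthy values ran from -1.35 to -0.56. The day 21 values ran from -1.06 to -0.29 in healthy and from -0.17 to 0.25 in tumor-bearing mice. They did not overlap, as for 18.3% of all assays. Clec7a, the beta-glucan receptor Dectin-1, had -0.49 ± 0.22 at day 21 (adjusted p 0.487). Of the monocyte subset genes, 0 of 5 assays passed on any day.

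The list of neutrophil markers was chosen with earlier results of these data known. Of its assays, 10 of 11 rose at day 14, with a median of 2.12, where 2.38% of all 588 assays passed. The 10 were Camp, Ela2, Fpr1, Il8rb, Ltf, Pglyrp1, Prtn3, S100a9 and both assays of S100a8. At day 21, 5 of 12 rose (Camp, Ela2, Itgb2l, Ltf and Prtn3), with a median of 1.73, where 1.22% of all 573 assays passed. The day 21 estimates of Itgb2l and Prtn3 rested on as few as 2 values in a group. The day 14 count was 6 of 11 when only the day 14 groups were fitted, 4 of 12 when missing reactions took the largest Cq and 3 of 4 among assays with all 28 values. The last 2 of these settings gave 0 of 12 and 0 of 4 at day 21, and leaving out healthy replicate 23, 24 or 25 gave 1 of 10, 2 of 11 and 3 of 11. For the 3 markers measured in every sample, relative quantities were summed, with assays weighted as measured. At day 14 the sum ran from 0.978 to 1.66 without a tumor and from 1.35 to 3.43 with one. At day 21 it ran from 1.43 to 2.42 against 3.09 to 5.33. Assay efficiencies are not given, so the true share of each marker in this sum is not known. The part of neutrophils in the levels of Itgam and Cd14, which these cells can also express, was not tested. S100a9, an abundant calcium-binding protein of neutrophils and monocytes, rose by 2.12 ± 0.38 at day 14 (adjusted p 0.00212 by limma).

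**Figure D4:**
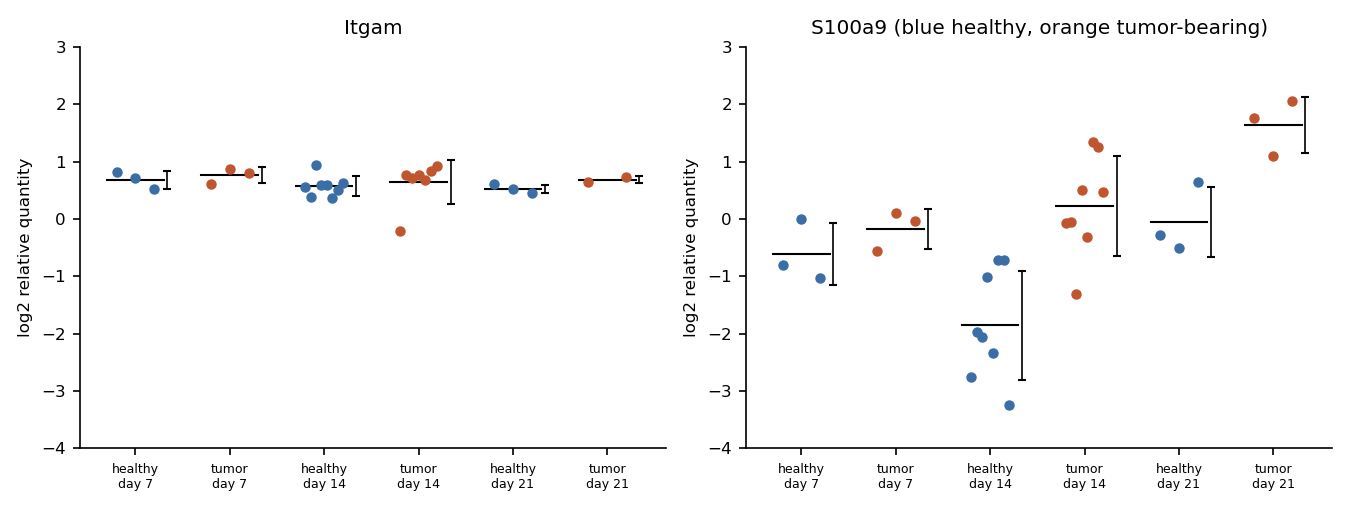
Log2 relative quantity of Itgam (left) and S100a9 (right) in healthy (blue) and tumor-bearing (orange) mice by day, with points for mice, lines for means and bars for 1 SD. Itgam lies between -0.21 and 0.94 in all groups, while S100a9 at day 14 runs from -3.24 to -0.72 without a tumor and from -1.31 to 1.34 with one.

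The ligand and its receptor were also set against each other within mice, among 15 tests of 5 within-mouse differences over 3 days that were chosen after the values were seen. Cx3cr1 minus Cx3cl1 differed between conditions by 0.52, 0.19 and 0.48 at days 7, 14 and 21. At day 21 the values did not overlap (0.76 to 1.41 without a tumor, 1.54 to 1.86 with one), and the exact permutation p was 0.1, the smallest possible (adjusted p 0.3 over the 15 tests). Which cells made Cx3cl1 was not examined. Of the 10 endothelial markers listed, 0 are on the panel, and of the 8 epithelial and tumor cell markers listed, 2 are. The list of T, B and NK cell markers had 5 assays, all of T cell genes, and 0 passed at day 14 or day 21. All 5 estimates were lower in tumor-bearing mice on both days. Their median log2 differences were -0.72 and -0.73, against -0.08 and -0.00127 over all assays. Of the dendritic cell markers, the chemokine receptor Ccr7 fell at day 21 by 1.18 on the log2 scale (adjusted p 0.0437 by limma) and 4 of 5 did not pass.

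Among mice of the same group, with group means removed, the 5 transcripts gave 10 pairs. With all reactions none passed. Without the far Aif1 reaction, Cd14 and Aif1 were correlated over 25 mice (Pearson r 0.636, permutation p 0.00192, adjusted over the 10 pairs 0.0192; Spearman rho 0.615, permutation p 0.00429, adjusted 0.0429). Leaving out the 2 mice farthest from the median of Cd14 gave r 0.518. With panel means removed too r was 0.585 (adjusted permutation p 0.0379), rho was 0.471 (adjusted permutation p 0.135), and r was 0.332 without the 2 farthest mice. The permutation in this setting did not refit the panel means, so its p can be too small. With the sample's median Cq in place of the reference genes r was 0.468 (adjusted permutation p 0.108). Both values share the sample's reference Cq. With all 26 reactions the Cd14 and Aif1 values gave r -0.09 and rho 0.385 (permutation p 0.962 and 0.0809, adjusted 0.962 and 0.418).

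**Figure D5:**
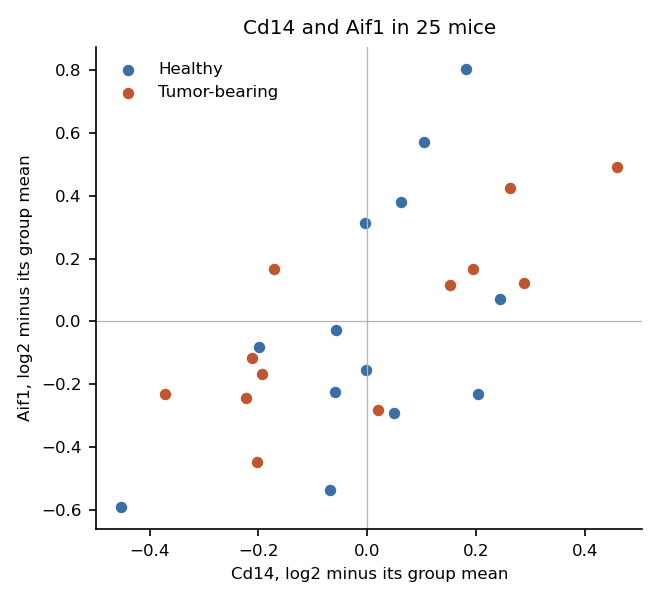
Cd14 (horizontal) against Aif1 (vertical), each as log2 relative quantity minus its group mean, in 25 mice without the far Aif1 reaction; blue is healthy and orange tumor-bearing. Pearson r is 0.636.

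Itgam and Cx3cl1 gave r 0.511 over 26 mice and rho 0.352 (permutation p 0.05 and 0.0837, adjusted 0.435 and 0.418). Without the 2 mice farthest from the median of Itgam r was 0.186, so on this scale it rested on those mice. With the sample's median Cq as reference r was 0.586 (adjusted permutation p 0.0789), and 0.50 without the 2 farthest. Aif1 and Cx3cl1 gave r -0.228 and rho -0.132 without the far reaction (permutation p 0.378 and 0.578, adjusted 0.756 and 0.738). When panel means were removed too they gave r -0.632 and rho -0.575 (adjusted permutation p 0.0379 and 0.093). Here again the permutation did not refit the panel means, so its p can be too small. The receptor and ligand pair, Cx3cr1 with Cx3cl1, did not pass in any of these settings.

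As a description, the genes most like each transcript among 310 assays measured in all mice, by Pearson r of group-centred values, differed between the 5. For Cd14 they were S100a8 (0.702), the formyl peptide receptor Fpr1 (0.578) and the chitinase-like Chi3l3 (0.549), over 28 mice. For Aif1 without the far reaction they were S100a8 (0.758), Ppia (0.744) and Chi3l3 (0.656), over 25 mice. Itgam was most like the inhibitory Fc receptor Fcgr2b (0.872), Il1rl2 (0.810) and Cxcr6 (0.801) over 26 mice, with rho of 0.730, 0.430 and 0.478. Cx3cl1 was most like the pentraxin Ptx3 (0.819), the thrombin receptor F2r (0.776) and Ptgs1 (0.718) over 27 mice, and Cx3cr1 like Lrp8 (0.489), A2m (0.487) and Pla2g4c (0.450) over 28 mice. The points of each r share the sample's reference Cq, and with the sample's median Cq as reference Ptx3, F2r and Ptgs1 stayed the first 3 for Cx3cl1, and Fcgr2b and Il1rl2 the first 2 for Itgam, while Dnajc8 (0.558) came first for Cd14.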

How the data were processed

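The 5 genes and all gene lists were chosen with earlier results of these data known. Per the labels' protocols, RNA of frozen scaffolds was treated with DNase, reverse transcribed and run on OpenArray inflammation panels; the labels name 7 physical panels. Per the file headers, the authors deposited raw Cq values and normalized values; the latter are ratios on a linear scale, and their log2 equals the mean Cq of 5 reference genes minus the assay's Cq (largest difference 2.96e-05 cycles). The deposited table of comparisons holds fold changes without errors. The Cq caller is not given in the sources used here. Missing reactions stayed missing. Log2 ratios were fitted with limma 3.58.1 in R 4.3.3: 1 mean per group over all 28 samples, panel as a random block (correlation 0.0535), 609 assays with values in at least 50% of the samples of 1 group, and at least 2 values per group of a contrast; the threshold was an adjusted p of 0.05. ± is the standard error unless SD is named. Far reactions lay over 4 cycles from their group's median. Exact permutation tests were two-sided. Correlations used 100000 permutations within groups. Where panel means were removed too, the values left were shuffled without refitting those means, so that p can be too small. The model was tested on simulated data. List members named passed the threshold or had the 2 smallest p of their list, of which 1 is not reported here; S100a9, Itgb2 and Ccr2 are also named as partners chosen after their values were seen. The number of mice limits the precision.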

Additional observations from a re-analysis of the deposited data

Results flagged for a closer look

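Dixon's test set the highest or lowest mouse against the others in groups of 4 to 10 mice, which only day 14 has. This gave 10 sets of values, each of 1 transcript in the healthy or the tumor-bearing mice. Chance marks about 1 in 20 such sets, but the same mice recur across transcripts, so the sets are not independent. At day 14 this marked 4 values. In healthy mice, Cd14 of replicate 7 stood far below the others at -0.58 and Itgam of replicate 9 far above at 0.94. In tumor-bearing mice, replicate 15 stood far below the others in Itgam (-0.21) and in Cx3cl1 (-5.61). Replicates 7 and 9 were run on the panel that held healthy mice only, and replicate 15 on the one that held tumor-bearing mice only. Without replicate 7 the day 14 log2 difference of Cd14 was 0.08 ± 0.12 (SE, limma), and with it 0.14 ± 0.13. The part of the panel in these values was not tested.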

How the results depend on the processing

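Across 571 re-estimates of the members' differences, 0 moved past the threshold, 530 kept their direction and 41 changed sign, of which 27 left out 1 mouse. The count of members past the threshold was 0 in each. The re-estimates covered tumor-bearing against healthy mice and, of the differences between days, only those named above with their values. They include exact permutation tests, whose p could not fall under 0.1 at days 7 and 21. Without far reactions, the Aif1 difference was -0.40 at day 7, -0.27 as the mean of the days and 0.18 for day 14 minus day 7 in tumor-bearing mice, and the mean-of-days Cd14 difference was -9.01e-05. Raw Cq centred on the sample median gave 0.062 for Cd14 at day 7 and 0.0874 for Cx3cr1 at day 14, and it moved the day 14 median of all assays from -0.08 to 0.03. For Cx3cr1 at day 14 the fixed panel block and leaving out panels D and G, which held 1 condition each, gave 0.16. For the mean-of-days Cd14, no panel block gave -0.00318 and the housekeeping mean gave -0.038. Missing reactions set to the largest Cq gave Itgam -3.17 at day 14, -7.16 at day 21 and -3.42 as the mean, by construction of the imputed values. The same setting gave Cx3cl1 in healthy mice 0.22 for day 21 minus day 7, although no healthy Cx3cl1 value was missing. The only imputed Cx3cl1 value was that of tumor-bearing day 14 replicate 21, on the same panel (E) as healthy day 21 replicate 23. The part of the panel block in this change of sign was not tested.

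Leaving out 1 mouse gave ranges at day 7 of -0.13 to 0.0641 for Cd14, -0.00263 to 0.16 for Itgam and -0.41 to 7.77 for Aif1. At day 14 they were -0.19 to 0.21 for Aif1 and -0.0895 to 0.0185 for Cx3cr1, and at day 21 -0.24 to 0.064 for Cx3cl1. As the mean of the days they were -0.0429 to 0.0368 for Cd14 and -0.27 to 2.45 for Aif1, and for Aif1 in tumor-bearing mice, day 14 minus day 7, -7.99 to 0.19. Aif1 changed sign at day 7, and as the mean, without tumor-bearing day 7 replicate 4.

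Of the 10 correlations, by Pearson r 0 passed with all reactions, 1 without far reactions and 3 when panel means were removed too, an alternative chosen after seeing the data. Its permutation did not refit the panel means, so p can be too small and these 3 calls are uncertain. By Spearman rho none of those 3 passed in that alternative. The adjusted permutation p of rho was 0.135 for Cd14 with Aif1, 0.135 for Itgam with Cx3cl1 and 0.093 for Aif1 with Cx3cl1. Cd14 with Aif1 had r 0.636, 0.585 and 0.468 without far reactions, with panel means removed too, and with raw Cq centred on the median, and 0.0675 with panel means removed and all reactions; Itgam with Cx3cl1 (0.613) and Aif1 with Cx3cl1 (-0.632) passed only in the second of these. Causes were not tested except where stated. No paired analysis was possible because each of the 28 mice has a replicate number of its own; this concerns pairing by replicate number, and mice on the same panel were compared as pairs and by the fixed panel block.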
